A study of Homo sapiens with 18 samples.

Results

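The enzymes described here are 7 sources of NADPH and pentose phosphates: isocitrate dehydrogenase 1 (IDH1), malic enzyme 1 (ME1), 6-phosphogluconate dehydrogenase (PGD), 6-phosphogluconolactonase (PGLS), transketolase (TKT), transaldolase (TALDO1) and, for contrast, the mitochondrial isocitrate dehydrogenase IDH2. They were chosen by name, and all 7 of them had a row among the 26249 genes measured. The series asked which transcripts change when pancreatic ductal adenocarcinoma cells meet DCLK1-IN-1, a compound that inhibits the kinase DCLK1. The established human lines PATU-8988T and PATU-8902 were each sampled as 3 libraries after 24 h of the vehicle DMSO, 3 after 6 h and 3 after 24 h of 2.5 µM inhibitor, which gives 18 libraries in 6 groups. No DMSO group was taken at 6 h, so time and drug cannot be told apart at 6 h or between 6 h and 24 h of inhibitor. Both drug groups of a line were set against the same 3 DMSO libraries. The series record calls the triplicates biological.

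NADPH is the reducing agent that cells spend on building sterols and fatty acids and on keeping glutathione and thioredoxin reduced. In the cytosol it is made by the oxidative branch of the pentose phosphate pathway (which includes PGLS and then PGD), by IDH1 from isocitrate and by ME1 from malate, while TKT and TALDO1 run the non-oxidative branch that trades sugar phosphates between the pathway and glycolysis. IDH2 catalyses the same reaction as IDH1 inside the mitochondrion, and IDH1, ME1 and several pentose phosphate genes are known as targets of the sterol regulator SREBP or of the oxidative stress factor NRF2.

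Expression was measured as FPKM, a fragment count corrected for transcript length, on a scale set by ERCC spike-in RNA added to RNA normalised by cell count. On that scale the median of the 11477 genes tested ran from 6.12 to 17.4 FPKM, a 2.84-fold span, while the average log2 deviation of 47 spike-ins stayed between -0.06 and 0.05. Values are therefore given as deposited, as a multiple of the library's median gene, or both. Log2 fold changes on the centred scale come from log2(FPKM + 1) with each library shifted to a common median. They need not equal the log2 ratio of the multiples, above all for low genes. Depth is unknown, because the values came without counts. The median log2 difference over all genes as deposited was -0.35 at 24 h in PATU-8988T, -0.32 between 6 h and 24 h there, 0.39 for the line difference at 24 h and 0.45 between the lines in DMSO, and it lay between -0.05 and 0.04 on the centred scale. All 7 epithelial and ductal markers averaged at least 1 FPKM in PATU-8902, but 3 of 7 did in PATU-8988T (KRT8, KRT18 and EPCAM), where KRT19, KRT7, CDH1 and MUC1 fell below it. The mesenchymal markers gave 2 of 5 in PATU-8902 and 4 of 5 in PATU-8988T, and 0 of the leukocyte, endothelial, fibroblast or acinar and islet markers reached 1 FPKM in either line.

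All 7 enzymes passed the filter of 1 FPKM on average. TALDO1, TKT and PGD were the abundant members, with ranges over the 18 libraries of 61.2 to 296 FPKM for TALDO1, 73.0 to 208 for TKT and 41.5 to 119.7 for PGD. IDH1 ran from 19.6 to 102 FPKM, ME1 from 20.6 to 42.0, IDH2 from 10.2 to 31.5 and PGLS from 6.46 to 41.8. Neighbours in this order overlapped in their ranges.

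Much of the spread between libraries of a group was shared by the 7 genes. The mean within-group coefficient of variation of FPKM was 21.0% for IDH1, 20.0% for ME1 and 30.7% for PGLS. Divided by the library median it was 2.60% for IDH1, 6.37% for ME1 and 13.0% for PGLS, and IDH2, PGD, TKT and TALDO1 lay between the latter values at 7.12% to 10.7%. IDH1 was thus the most even member within groups once each library was set to its own median. In bulk RNA, fewer cells of a type and less RNA per cell cannot be told apart.

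**Figure D1:**
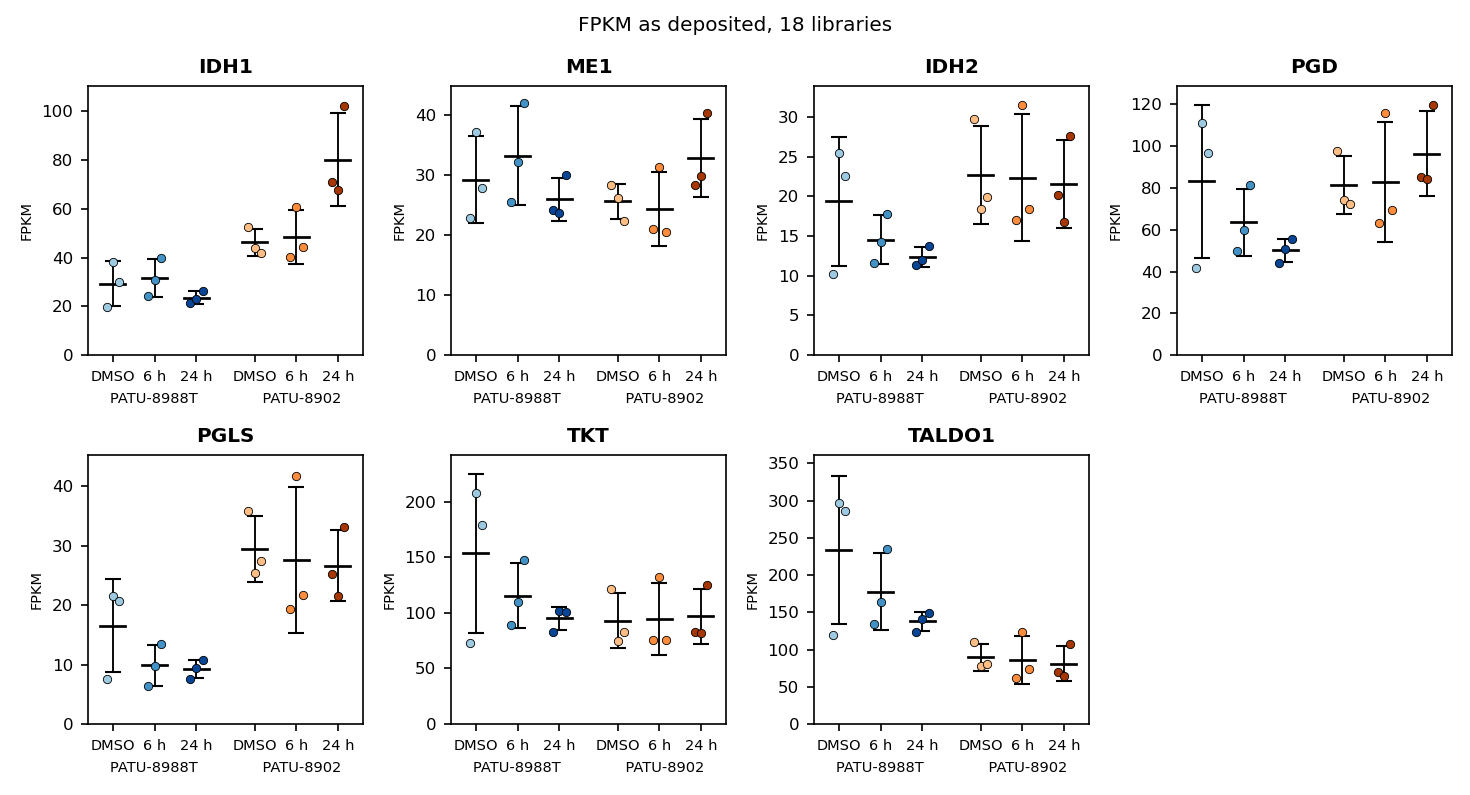
FPKM as deposited (y axis, from 0) of the 7 enzymes in the 18 libraries, by cell line and treatment (x axis); points are libraries, bars the mean and SD of 3. In PATU-8902 IDH1 after 24 h of inhibitor stands at 67.6 to 102 FPKM against 42.0 to 52.5 in DMSO, and PATU-8988T DMSO has 1 library well under the other two for TALDO1, TKT and PGD.

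With the inhibitor 1 of the 7 transcripts rose on the centred scale: IDH1, in PATU-8902 at 24 h. Its promoter is shown because IDH1 is the member that passed and because a sterol element has been described for it. The 250 bases before a RefSeq start of IDH1 (GRCh38.p14, chr2:208255072-208255321, minus strand) and before that of ME1 (chr6:83431052-83431301, minus strand) are printed 5′ to 3′, with capitals for TGGGCTGAG, the element described for IDH1 itself, and for TGACNNNGC, the core of the NRF2 element.
IDH1: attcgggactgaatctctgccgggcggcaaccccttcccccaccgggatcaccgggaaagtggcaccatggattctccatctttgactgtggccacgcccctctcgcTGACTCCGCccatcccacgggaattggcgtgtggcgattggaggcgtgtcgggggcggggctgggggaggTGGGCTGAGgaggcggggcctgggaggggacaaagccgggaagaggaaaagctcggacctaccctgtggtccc
ME1: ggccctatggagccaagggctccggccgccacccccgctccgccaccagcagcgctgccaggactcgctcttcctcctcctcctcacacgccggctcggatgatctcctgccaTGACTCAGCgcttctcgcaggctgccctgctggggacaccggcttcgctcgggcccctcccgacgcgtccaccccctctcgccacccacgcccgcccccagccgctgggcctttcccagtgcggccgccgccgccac

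The search covered 5 motifs on both strands of these windows and of the same windows of all 35116 promoters in the RefSeq table. TGGGCTGAG was described for IDH1 itself, so its share over all promoters does not measure how unexpected a match in IDH1 is. The IDH1 window held 1 TGGGCTGAG beginning 73 bases before the start, which 0.664% of all promoters hold, and 1 TGACNNNGC at 143 bases, which 10.9% hold. It also held 2 CCAAT boxes (32% of promoters hold one) and 3 GGGCGG boxes (42.6%), 1 of which, at 138 bases, overlaps the TGACNNNGC match. The SREBP consensus TCACNCCAC, found in 0.883% of promoters, had 0 matches in it. ME1 and PGD each had 1 TGACNNNGC, at 137 and 201 bases, and PGLS, TKT and TALDO1 had 0 of it. A second IDH1 start in the table, with the window chr2:208254459-208254708, had none of TGGGCTGAG, TGACNNNGC, TCACNCCAC or CCAAT. A match is a stretch of letters and not a shown site of binding.

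In PATU-8902 DMSO, IDH1 measured 52.5, 44.1 and 42.0 FPKM in replicates 1 to 3. At 6 h of inhibitor the values were 40.0, 60.9 and 44.1 FPKM, and at 24 h they were 70.9, 67.6 and 102 FPKM. The lowest library at 24 h lay above the highest in either other group, while DMSO and 6 h overlapped. The group means were 46.2 ± 5.59, 48.3 ± 11.1 and 80.2 ± 18.9 FPKM (SD, n = 3).

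Relative to the library median the same rise stood far outside the spread of the replicates. IDH1 was 3.52, 3.46 and 3.35 times the median in DMSO, 3.74, 3.64 and 3.68 times at 6 h, and 5.57, 5.48 and 5.87 times at 24 h. The 24 h level was thus high in each of 3 libraries, and the 6 h level lay slightly above DMSO in each.

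On the centred scale IDH1 was 1.63-fold higher at 24 h than in DMSO (log2 0.70 ± 0.05 SE, limma adjusted p = 3.35e-07, higher in 3 of 3 libraries), and its p ranked 10 of 11477. It was the 1 member of 7 past the threshold of an adjusted p below 0.05, where 0.444% of all genes passed. As deposited the fold was 1.70 (log2 0.76 ± 0.26 SE), with an unadjusted limma p of 0.00925 and an adjusted p of 0.9999, so it did not pass. On that scale 0 of 7 members passed in limma, where 0.113% of all genes did, and 1 of 7 (IDH1) had an unadjusted p below 0.05, as did 168 of all genes. Leaving out any 1 of the 6 libraries kept the centred log2 change between 0.67 and 0.73, with the call kept in each of the 6 fits.

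The other cytosolic NADPH source of the same kind, ME1, gave a smaller difference. ME1 measured 28.3, 26.1 and 22.4 FPKM in PATU-8902 DMSO and 28.4, 29.8 and 40.4 at 24 h, or 1.90, 2.05 and 1.79 times the library median against 2.23, 2.41 and 2.32. The 24 h libraries lay above the DMSO libraries on both scales, narrowly so in FPKM. Its centred log2 difference was 0.27 ± 0.08 SE (limma unadjusted p = 0.00487, adjusted p = 0.407) and did not pass.

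The pentose phosphate enzymes gave no call in PATU-8902 at 24 h. PGD, an NADPH-making step of the oxidative branch, stood at 6.54, 5.84 and 5.80 times the library median in DMSO and 6.70, 6.84 and 6.89 times at 24 h, without overlap (log2 0.17 ± 0.12 SE, limma adjusted p = 0.695). PGLS, the lactonase that acts before PGD, stood at 2.40, 1.99 and 2.19 times in DMSO and 1.98, 1.74 and 1.91 times at 24 h, all under DMSO (log2 -0.21 ± 0.15 SE, limma adjusted p = 0.721). TKT was at 1.00-fold of DMSO and TALDO1 at a log2 difference of -0.23 ± 0.13 SE, with libraries that overlapped. The 2 members of the oxidative branch thus lay on opposite sides of 0, and none of these 4 differences passed.

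IDH2, the mitochondrial counterpart, gave no call. It measured 29.7, 18.4 and 20.0 FPKM in PATU-8902 DMSO and 20.2, 16.8 and 27.6 FPKM at 24 h, with a centred log2 difference of -0.13 ± 0.12 SE (limma adjusted p = 0.769). The groups overlapped on both scales.

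The ratio of IDH1 to IDH2 within a library needs no scaling. It was 2.09 ± 0.314 in PATU-8902 DMSO, 2.22 ± 0.254 at 6 h and 3.75 ± 0.264 at 24 h (SD, n = 3). The 24 h ratio was 1.80-fold that in DMSO without overlap, with a 2-sided exact permutation p of 0.1, the smallest that 3 libraries against 3 allow. IDH1 to PGD moved likewise from 0.570 ± 0.0278 to 0.828 ± 0.0254 and IDH1 to ME1 from 1.80 ± 0.103 to 2.43 ± 0.140, each without overlap and each at the same exact permutation p of 0.1. PGLS to PGD went the other way, from 0.362 ± 0.0189 to 0.276 ± 0.0203, also without overlap (exact permutation p = 0.1). TALDO1 to TKT fell too, from 0.977 ± 0.0651 to 0.833 ± 0.0342 without overlap (exact permutation p = 0.1), and PGD to TKT overlapped (exact permutation p = 0.2). In PATU-8988T at 6 h, IDH1 to IDH2 was 1.38-fold and IDH1 to PGD 1.35-fold that in DMSO, both without overlap (exact permutation p = 0.1 each). PGLS to PGD was lower there at 0.777-fold, also without overlap (exact permutation p = 0.1), and the other ratios overlapped. At 24 h in that line every ratio overlapped DMSO, with IDH1 to IDH2 at 1.22-fold. The ratio tests numbered 42, and separation without overlap was frequent among them. The smallest p after Benjamini-Hochberg adjustment over them was 0.191 (exact permutation).

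**Figure D2:**
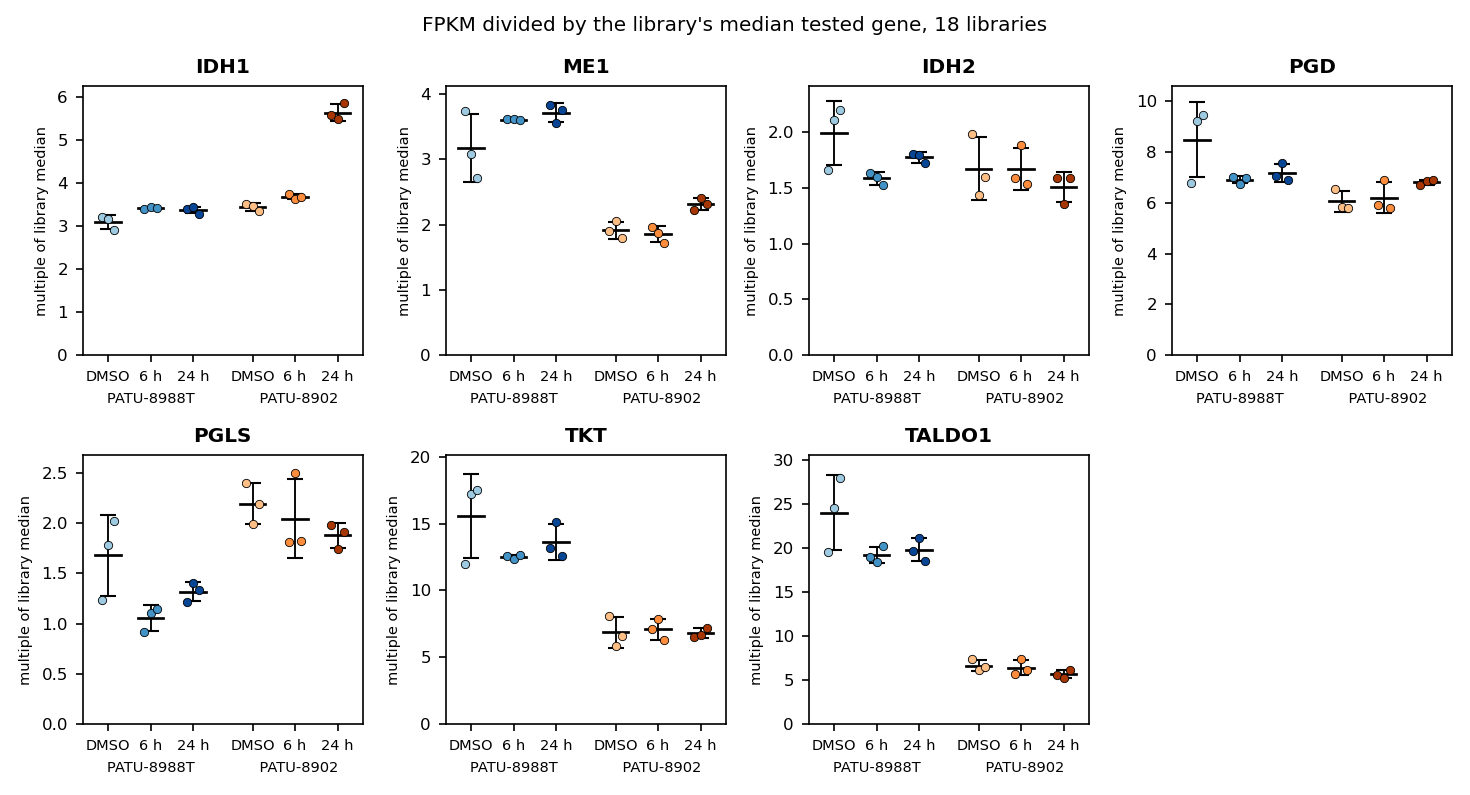
FPKM divided by the library's median over the tested genes (y axis, from 0) for the 7 enzymes, by cell line and treatment (x axis); points are libraries, bars the mean and SD of 3. IDH1 in PATU-8902 stands at 5.48 to 5.87 at 24 h against 3.35 to 3.52 in DMSO, and TKT and TALDO1 are higher in all PATU-8988T libraries than in any PATU-8902 library.

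**Figure D3:**
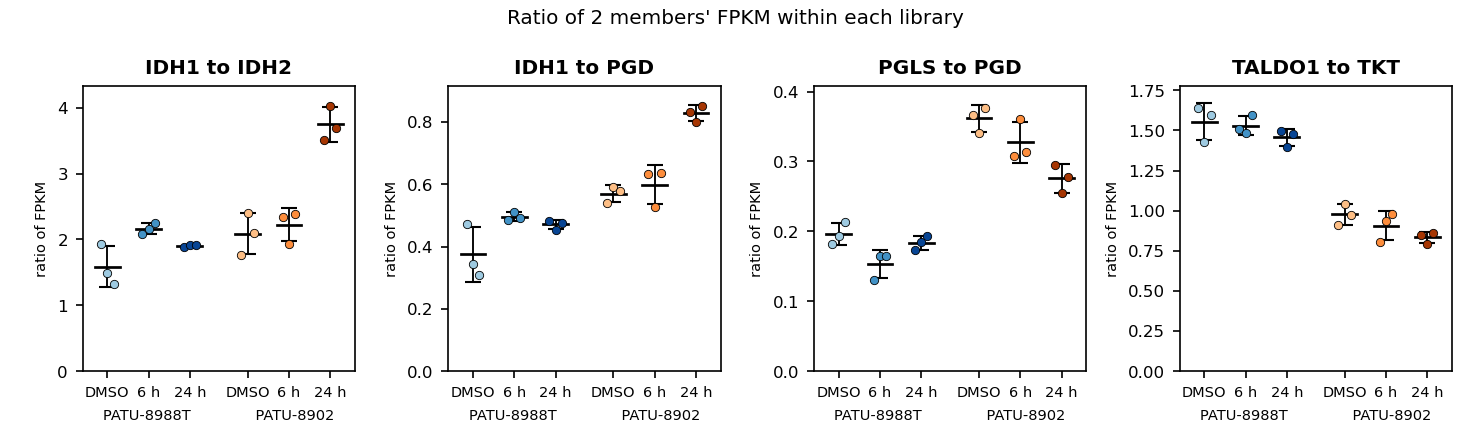
Ratio of 2 members' FPKM within each library (y axis, from 0), by cell line and treatment (x axis); points are libraries, bars the mean and SD of 3. IDH1 to IDH2 averages 3.75 at 24 h in PATU-8902 against 2.09 in DMSO. In PATU-8988T it averages 1.58 in DMSO, 2.16 at 6 h without overlap with DMSO, and 1.90 at 24 h with overlap.

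None of the 7 enzymes passed in PATU-8902 after 6 h. IDH1 had a centred log2 difference of 0.09 ± 0.05 SE and the other members lay between -0.11 (PGLS) and 0.05 (TKT). In limma 0 of 7 members passed on either scale, where 0.113% of all genes passed centred and 0.00871% as deposited. At an unadjusted p below 0.05 there were 0 of 7 members on either scale, against 270 genes centred and 79 as deposited.

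Between 6 h and 24 h of inhibitor time and drug cannot be told apart, and the 24 h libraries are those set against DMSO above. In this comparison, which does not involve DMSO, IDH1 rose in PATU-8902. Its centred log2 change was 0.61 ± 0.05 SE (limma adjusted p = 6.67e-06, rank 3 of 11477), with the call kept when any 1 of the 6 libraries was left out. It was 1 of 7 members past the threshold, where 0.244% of all genes passed. ME1 gave 0.32 ± 0.08 SE (limma adjusted p = 0.271) and did not pass. As deposited 0 of 7 members and 0 of all genes (0%) passed in limma, and 1 of 7 members (IDH1) and 197 of all genes had an unadjusted p below 0.05.

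In PATU-8988T none of the 7 enzymes passed after 24 h of inhibitor, and DMSO replicate 1 stood apart from DMSO replicates 2 and 3. TALDO1 measured 119.8, 296 and 286 FPKM in DMSO replicates 1 to 3, 134, 163 and 236 at 6 h, and 124, 142 and 149 at 24 h. TKT measured 73.0, 208 and 179 FPKM in DMSO and 83.1, 101 and 101 at 24 h, and PGD 41.5, 111 and 97.0 in DMSO and 44.3, 50.7 and 55.4 at 24 h. For all 3 genes DMSO replicate 1 lay below every 24 h library, and DMSO replicates 2 and 3 lay above every 24 h library. The library medians differed likewise, at 6.12, 12.1 and 10.2 FPKM in DMSO replicates 1 to 3 against 6.30 to 8.01 at 24 h.

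The limma fit called 0 of 7 members at 24 h in PATU-8988T, with 0 of all genes (0%) as deposited and 0 of all genes (0%) centred. As deposited the members' log2 differences ran from -0.66 (PGLS) to -0.15 (ME1), where the median over all genes was -0.35. Centred they ran from -0.31 (PGLS) to 0.20 (ME1). At an unadjusted p below 0.05 there were 0 of 7 members and 687 genes as deposited, and 3 of 7 members (ME1, PGD and TALDO1) and 1923 genes centred. Without DMSO replicate 1 the counts were 5 of 7 as deposited (IDH2, PGD, PGLS, TKT and TALDO1, all lower) and 6 of 7 centred (ME1 higher, the same 5 lower). Of all genes 56.8% and 40.8% also passed in those fits, so the members' share is read against a large background. Without DMSO replicate 2 or without DMSO replicate 3 the count was 0 on both scales. Leaving out DMSO replicates 2 and 3 together keeps DMSO replicate 1 alone. Over all comparisons that use this DMSO group, 24 of 35 member values then changed sign as deposited and 17 of 35 centred. The directions of the members thus depended on which DMSO libraries were kept.

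At 6 h in PATU-8988T, IDH1 stood at 3.40, 3.45 and 3.42 times the library median against 3.21, 3.16 and 2.91 in DMSO. These groups did not overlap, and the centred log2 difference was 0.15 ± 0.05 SE (limma adjusted p = 0.0987). PGLS stood at 0.912, 1.11 and 1.15 times against 1.24, 1.78 and 2.02, again without overlap (log2 -0.60 ± 0.15 SE, limma adjusted p = 0.0836). In limma 0 of 7 members passed on the centred scale, where 0.0784% of all genes did, and 0 of 7 as deposited, where 0% did. Unadjusted p-values below 0.05 were found for 6 of 7 members and 3390 genes centred, and for 0 of 7 members and 287 genes as deposited. Without DMSO replicate 1, 7 of 7 passed on the centred scale (IDH1 and ME1 higher, the other 5 lower), beside 42.6% of all genes. Between 6 h and 24 h in PATU-8988T limma called 0 of 7 members on either scale (0% of all genes on each), and 0 of 7 members had an unadjusted p below 0.05 on either scale, against 665 genes as deposited and 544 centred.

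**Figure D4:**
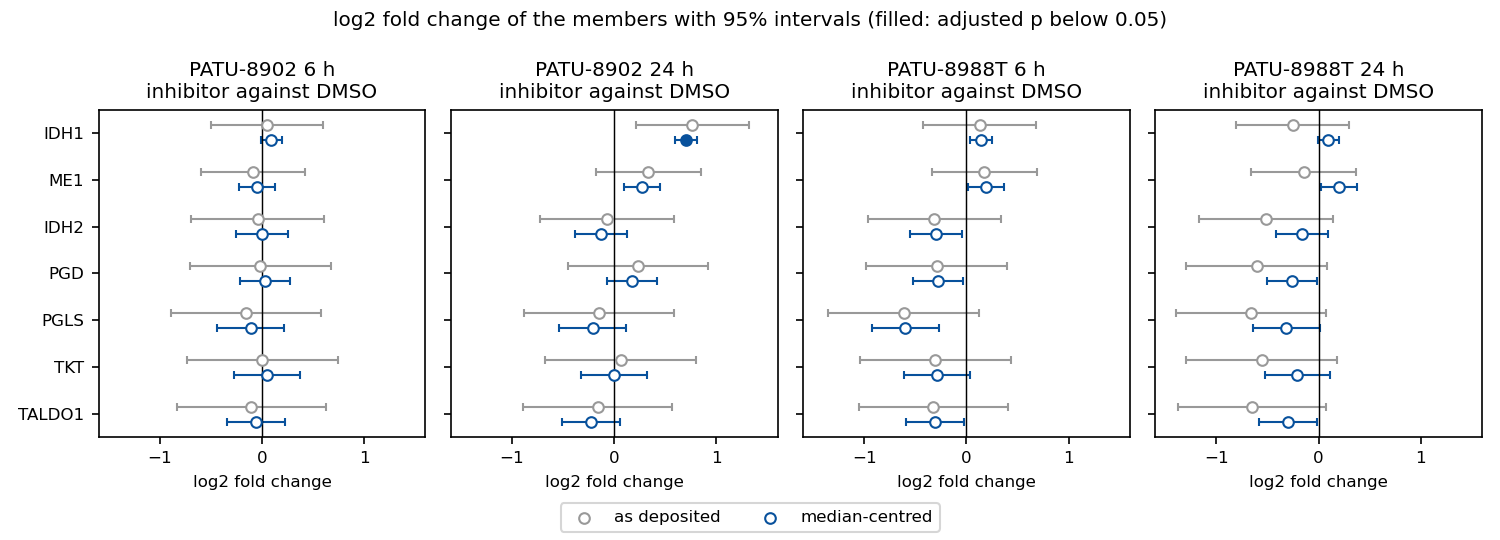
Log2 fold change (x axis) of the 7 enzymes (y axis) in the 4 comparisons of inhibitor with DMSO, as deposited (grey) and median-centred (blue), with 95% intervals of the limma fit; filled points passed an adjusted p below 0.05. The 1 filled point is IDH1 in PATU-8902 at 24 h on the centred scale, at 0.70.

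The 24 h change of IDH1 differed between the lines. In PATU-8988T IDH1 stood at 3.21, 3.16 and 2.91 times the library median in DMSO and 3.40, 3.44 and 3.29 times at 24 h, a centred log2 difference of 0.10 ± 0.05 SE (limma adjusted p = 0.305). The difference of the 2 lines' changes was 0.61 ± 0.07 SE on the log2 scale (limma interaction, adjusted p = 3.51e-04), with the call kept when any 1 of the 12 libraries was left out. IDH1 was 1 of 7 members past the threshold there, where 0.227% of all genes passed. As deposited the difference was 1.02 ± 0.37 SE (adjusted p = 0.547), from changes of 0.76 in PATU-8902 and -0.25 in PATU-8988T. On that scale 0 of 7 members passed in limma, where 0.00871% of all genes did, and 1 of 7 members (IDH1) and 281 genes had an unadjusted p below 0.05.

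PGD came next among the line differences at 24 h, at a centred log2 difference of 0.43 ± 0.16 SE that did not pass, and the other 5 lay between 0.03 (IDH2) and 0.21 (TKT). Without PATU-8988T DMSO replicate 1 the PGD value was 0.61 ± 0.11 SE and passed (limma adjusted p = 0.00960), which made 2 of 7 members beside 5.54% of all genes. For the 6 h change limma called 0 of 7 members on either scale (0% of all genes on each). At an unadjusted p below 0.05 it gave 1 of 7 members (PGLS) and 1385 genes centred, and 0 of 7 members and 99 genes as deposited. Without the same library, 4 of 7 passed centred at 6 h (PGD, PGLS and TKT higher, ME1 lower), beside 20.1% of all genes.

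In DMSO the lines differed in most of these enzymes on the centred scale, as they did in most genes. TALDO1 stood at 19.6, 24.6 and 28.0 times the library median in PATU-8988T given DMSO and at 7.41, 6.10 and 6.46 times in PATU-8902, and TKT at 11.9, 17.3 and 17.5 times against 8.12, 5.85 and 6.63 times. Relative to the library median, both enzymes of the non-oxidative branch were thus lower in every PATU-8902 library. In FPKM TKT overlapped, at 73.0, 208 and 179 in PATU-8988T against 121, 74.6 and 82.9 in PATU-8902. As deposited TKT did not pass (log2 -0.62 ± 0.35 SE, limma adjusted p = 0.148). With PATU-8988T DMSO replicates 2 and 3 both left out, that TKT difference was 0.31. Centred, TALDO1 was 3.44-fold lower in PATU-8902 (log2 -1.78 ± 0.13 SE, limma adjusted p = 4.68e-09) and TKT 2.17-fold lower (log2 -1.12 ± 0.15 SE, limma adjusted p = 5.32e-06).

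Of the cytosolic NADPH-making members, ME1 and PGD were lower and IDH1 higher in PATU-8902 on the centred scale. ME1 (log2 -0.66 ± 0.08 SE, limma adjusted p = 2.26e-06) and PGD (log2 -0.42 ± 0.12 SE, limma adjusted p = 0.00372) were lower without overlap. With PATU-8988T DMSO replicates 2 and 3 both left out, PGD fell short of the threshold at -0.07 (limma adjusted p = 0.587), and as deposited it was then higher at 0.95 (limma adjusted p = 0.0267). IDH1 differed by 0.19 ± 0.05 SE (limma adjusted p = 0.00319). The lactonase PGLS was higher (log2 0.41 ± 0.15 SE, limma adjusted p = 0.0271), with libraries that overlapped. On the compared groups alone neither IDH1 (limma adjusted p = 0.0858) nor PGLS (0.0793) passed. IDH2 gave -0.22 ± 0.12 SE and did not pass. In total 6 of 7 members passed, 2 higher and 4 lower, where 72.2% of all genes passed, so the count is near the background.

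On the deposited scale 3 of 7 passed, IDH1 (log2 0.69 ± 0.26 SE) and PGLS (log2 0.91 ± 0.35 SE) higher and TALDO1 (log2 -1.28 ± 0.35 SE, limma adjusted p = 0.00429) lower, where 54.2% of all genes passed. The directions of PGD and IDH2 depended on the scale, at 0.08 and 0.28 as deposited, and neither passed there. PGLS lost its call on both scales without PATU-8988T DMSO replicate 1 and without PATU-8902 DMSO replicate 1 or 3 (limma adjusted p from 0.0550 to 0.232). IDH1 as deposited kept its call in 1 of 6 such fits, the one without PATU-8988T DMSO replicate 2, and centred in 6 of 6, while TKT as deposited gained one without PATU-8988T DMSO replicate 1 (log2 -1.08, adjusted p = 0.00518). TALDO1 as deposited was at -0.43 (adjusted p = 0.333) with both PATU-8988T DMSO replicates 2 and 3 left out. Within a library, TALDO1 to TKT averaged 1.55 ± 0.114 in DMSO-treated PATU-8988T and 0.977 ± 0.0651 in PATU-8902, without overlap (exact permutation p = 0.1). PGLS to PGD averaged 0.196 ± 0.0156 and 0.362 ± 0.0189 in the same order, likewise without overlap (exact permutation p = 0.1).

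Genes around the 7 enzymes were grouped in 8 lists, and the account starts with PATU-8902 at 24 h. Of the pentose phosphate pathway beyond the members, 0 of 8 tested genes passed in limma on the centred scale, with a median log2 difference of -0.12 against -0.02 over all genes tested. TKTL1 and TKTL2, the transketolase-like genes, lay at the floor of the table and were not tested. PRPS2 and PRPS1, which draw on ribose 5-phosphate, gave -0.12 ± 0.06 and -0.16 ± 0.08 SE, and the isomerases RPE and RPIA gave 0.03 ± 0.09 and -0.14 ± 0.07 SE.

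The other NADPH sources and NAD kinases gave 0 of 8 past the threshold (median -0.08), with the folate enzymes MTHFD1 at -0.16 ± 0.10 and MTHFD2 at -0.11 ± 0.06 SE. The citrate and malate shuttle that feeds IDH1 and ME1 gave 0 of 9 (median -0.15), with citrate synthase CS at -0.18 ± 0.09 and ATP citrate lyase ACLY at 0.34 ± 0.11 SE. The NAD-linked isocitrate dehydrogenase of the mitochondrion gave 0 of 3 (median -0.03), with its catalytic subunit IDH3A at -0.02 ± 0.06 SE. The lists of NADPH-using antioxidant reductases and of NRF2 targets gave 0 of 5 (median -0.15) and 0 of 10 (median -0.07). NQO1, which stands in both of those lists, gave -0.15 ± 0.11 SE.

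The enzymes that spend NADPH on sterols rose in PATU-8902 at 24 h. On the centred scale 9 of 11 passed, all higher, with a list median of 1.13, beside 0.444% of all genes. The list was known to move in these libraries before it was drawn up, so its count is a description. SQLE, squalene epoxidase, went from 67.7 ± 6.59 to 204 ± 40.0 FPKM (SD, n = 3, centred log2 1.50 ± 0.05 SE, limma adjusted p = 9.38e-11). HSD17B7, a sterol ketone reductase, gave 1.69 ± 0.12, MSMO1 1.56 ± 0.15, DHCR7 1.33 ± 0.13, CYP51A1 1.29 ± 0.07, FDFT1 1.13 ± 0.11 and TM7SF2 0.78 ± 0.13 SE. LBR, a second sterol reductase, and POR, the electron donor of CYP51A1 and SQLE, did not pass, at -0.02 ± 0.07 and 0.18 ± 0.11 SE. As deposited 4 of 11 passed (SQLE, CYP51A1, MSMO1 and HSD17B7).

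The centred log2 change of IDH1, at 0.70, lay below the 9 estimates, within the error of TM7SF2. On the centred scale IDH1 passed at 24 h, and 5 of 11 sterol enzymes had passed at 6 h, beside 0.113% of all genes. Among them were SQLE at 0.86, CYP51A1 at 0.54, MSMO1 at 1.06 and HSD17B7 at 0.89. As deposited 0 of 11 sterol enzymes passed at 6 h. Whether IDH1 and these enzymes differ in timing was not tested. Of the 3 NADPH-using fatty acid enzymes, HSD17B12 passed at 24 h (0.41 ± 0.07 SE, limma adjusted p = 0.00528). FASN, the fatty acid synthase, gave 0.55 ± 0.13 SE (limma adjusted p = 0.138) and TECR -0.15 ± 0.14 SE, and neither passed.

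In PATU-8988T, 0 of 11 sterol enzymes passed at 24 h on the centred scale. At 6 h, 2 of 11 did, among them SQLE (0.36 ± 0.05 SE), beside 0.0784% of all genes. As deposited 0 of 11 passed there at 6 h. In the comparison of the DMSO groups, centred, the 10 NRF2 targets tested gave 1 higher (GCLC) and 9 lower in PATU-8902, with a median log2 difference of -1.53 against -0.05 over all genes. HMOX1, heme oxygenase, was the farthest apart there, at an average of 50.4 FPKM in PATU-8988T and 1.00 FPKM in PATU-8902. The same comparison gave 2 higher and 4 lower of the 8 other pentose phosphate genes, beside 72.2% of all genes, and 2 higher and 0 lower as deposited. Centred, the isomerases differed, with RPE higher at 0.63 ± 0.09 SE and RPIA lower at -0.43 ± 0.07 SE.

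**Figure D5:**
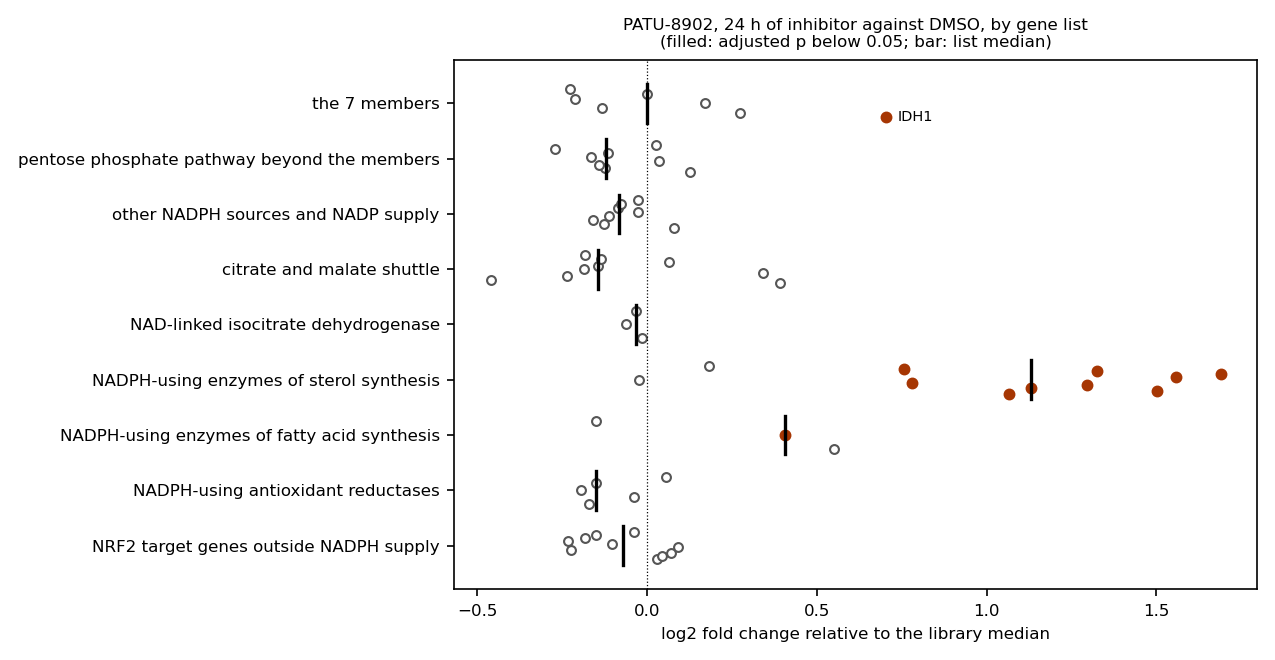
Log2 fold change relative to the library median (x axis) at 24 h of inhibitor against DMSO in PATU-8902, for the 7 enzymes and the tested genes of 8 lists (y axis); each point is a gene, filled where the adjusted p was below 0.05, and the black bar is the list median. The sterol enzymes that use NADPH hold 9 filled points and IDH1 is the 1 filled point among the 7 enzymes.

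How the 7 enzymes varied together over the 18 libraries was described by Pearson's r of centred log2 values after the mean of each line was taken off. IDH1 and ME1 gave r = 0.75. IDH2, PGD, PGLS, TKT and TALDO1 gave r from 0.68 to 0.88 among themselves. Across these sets IDH1 gave -0.42 (TALDO1) to 0.23 (PGD) and ME1 gave -0.73 (TALDO1) to -0.27 (PGD). PGD did not keep to one set within the lines. In the 9 PATU-8902 libraries it gave r = 0.67 with IDH1, 0.63 with ME1 and 0.61 with TKT, but 0.32 with IDH2, 0.29 with PGLS and 0.18 with TALDO1. In the 9 PATU-8988T libraries it gave -0.58 with IDH1, -0.93 with ME1 and 0.88 to 0.98 with the other 4. DMSO replicates 2 and 3 of that line lay apart from its other libraries. PGD stood at 9.21 and 9.47 times the library median in them, against 6.75 to 7.58 times in the others. ME1 stood at 3.08 and 2.71 times against 3.55 to 3.83 times. How far the PATU-8988T correlations rest on these 2 libraries was not tested. The points of all these correlations share libraries and their centring, the groups are part of the variation, and no p is given. In the table of GENCODE 29 transcripts the median GC content was 43.1% for IDH1 and 39.5% for ME1, and 53.7% (PGD) to 64.8% (PGLS) for the other 5. The part of base composition in these correlations was not tested. After a correction for GC content, added with the data in view, the PATU-8902 24 h change of IDH1 was 0.67.

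The genes most like each member in this measure over the 18 libraries were named by rank. For IDH1 they were ELOVL6 (r = 0.97), C14orf1 (r = 0.95) and SCD (r = 0.93). For ME1 they were XRCC4 (r = 0.90), GULP1 and NUCB2 (each r = 0.88), and for IDH2 TLDC1, ASNA1 and S100A16 (each r = 0.95). For PGD they were CHMP2A (r = 0.94), SPAG7 and CSTB (each r = 0.93), and for PGLS ZDHHC12, TBC1D9B and FPGS (r = 0.94 to 0.95). For TKT they were SLC44A2 (r = 0.97), EIF2B5 and CAPNS1 (each r = 0.95), and for TALDO1 PPP2R1A, EFTUD2 and PTDSS1 (r = 0.98 to 0.99). In PATU-8902 at 24 h the centred log2 differences of ELOVL6, C14orf1 and SCD were 0.94, 1.07 and 0.92, against 0.70 for IDH1. In PATU-8988T at 24 h they were 0.07, -0.0049 and 0.35. ELOVL6, C14orf1 and SCD were picked for their likeness to IDH1 over the same libraries, so these changes are no separate observation.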

How the data were processed

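Polyadenylated RNA of 18 libraries was sequenced as 75-base single-end reads, per the labels' protocols. The authors deposited 1 table of FPKM values, and per the submitters' processing notes HISAT, Cufflinks and Cuffnorm were used with hg19. Versions and strand use in counting are not given in the sources used here. Values were analysed as log2(FPKM + 1), which understates changes of low genes. Of 26249 genes, 11477 averaged 1 FPKM or more and were tested; 92 spike-in rows were left out. A limma fit (3.58.1, R 4.3.3) of 6 group means used a trended variance prior, with 12 residual degrees of freedom, as deposited and after shifting each library to a common median. The p-values are 2-sided with Benjamini-Hochberg adjustment over tested genes within each of 9 contrasts, and a gene passed below 0.05. Ratios were compared by exact permutation. Depth is unknown, so 3 libraries per group set the precision. Genes past the threshold, and otherwise at most 4 per list by mean FPKM, are named, with the 3 most alike genes per member. The model was run on simulated centred values with independent noise for each gene. That run held no shifts of whole libraries, so it does not cover the deposited scale. The members and lists were chosen with earlier results of these data known. List counts cover some genes that are not reported here by name. Promoters are RefSeq (GRCh38.p14); that for IDH2 is not shown.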

Additional observations from a re-analysis of the deposited data

Results flagged for a closer look

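The change of IDH1 after 24 h of inhibitor differed between the 2 lines by a test of the difference itself. On the centred scale the PATU-8902 change exceeded the PATU-8988T change by 0.61 ± 0.07 SE in log2 (limma interaction, adjusted p = 3.51e-04), with changes of 0.70 in PATU-8902 and 0.10 in PATU-8988T. Over 9 alternative settings the difference ran from 0.57 to 0.64 with adjusted p-values from 2.81e-04 to 0.0137. As deposited the changes were 0.76 and -0.25, and their difference of 1.02 did not pass (adjusted p = 0.547).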

How the results depend on the processing

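On the centred scale the 3 IDH1 results that passed (24 h against DMSO and against 6 h in PATU-8902, and the line difference) passed under every alternative tried: another pseudocount, no filter, a higher filter, no trend, a fit on the compared groups, a replicate block, cyclic loess, GC correction and, for the line difference, leaving out both PATU-8988T DMSO replicates 2 and 3. The last 2 were chosen after seeing the data. The 3 results share the PATU-8902 libraries at 24 h, so they are not independent of each other. Same-number libraries, over both lines, gave r from -0.22 to 0.14 between their departures from the group means over genes. A shift of a whole library does not change this r, so it cannot show whether library levels were paired by replicate number. With replicate number as a block IDH1 at 24 h in PATU-8902 gave 0.70 and no member call changed on either scale. The DMSO line comparison as deposited fell from 3 members to 1 with no filter and to 1 on the compared groups alone; the cause was not tested. On its centred scale IDH1 lost its call after GC correction (0.10, adjusted p = 0.134) and on the compared groups alone (0.19, adjusted p = 0.0858), PGLS lost it on the compared groups alone (0.41, adjusted p = 0.0793), and PGD with both PATU-8988T DMSO replicates 2 and 3 left out (-0.07, adjusted p = 0.587). Leaving out a library gave 1 to 3 members in the DMSO comparison as deposited, with 3 of them without PATU-8988T DMSO replicate 2, where 58.9% of all genes passed. Without PATU-8988T DMSO replicate 1 or 3 it gave 2 members each, beside 51.6% and 51.4% of all genes. Leaving out a library gave 0 to 5 at 24 h in PATU-8988T as deposited, 0 to 6 centred, 0 to 7 at 6 h centred, and 1 to 2 and 0 to 4 for the line differences at 24 h and 6 h centred. The upper values for these inhibitor comparisons came without PATU-8988T DMSO replicate 1. In those fits 56.8%, 40.8%, 42.6%, 5.54% and 20.1% of all genes passed, in the same order. Depth is unknown, and 3 libraries per group limit every comparison.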
